A study of Homo sapiens with 15 samples.

Results

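The genes described here are 10 that restrain or respond to ERK signalling: the MAP kinase phosphatases DUSP1, DUSP2, DUSP4, DUSP5 and DUSP6, the Sprouty genes SPRY2 and SPRY4, the SPRED genes SPRED1 and SPRED2, and IER3. They were chosen by name, with earlier results of these data known. All 10 were found among the 15230 genes of the day 7 count table and the 12575 genes of the day 3 and day 7 count table. All 10 also passed the filter on low counts in both. The cells were immortalized human astrocytes (IHA), an established SV40 line of fetal origin, in which doxycycline at 1 µg/ml switched on a mutant IDH1 (R132H, by the design text of the series). The groups were day 7 of doxycycline (4 libraries tagged b2 and 1 tagged b1), day 3 of doxycycline (4 libraries, all b2) and no doxycycline (3 libraries of b2 and 3 of b1), with the tag taken as a batch.

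All groups grew with 10 ng/ml EGF, a ligand of the ERK pathway, and all 15 samples are labelled wild type at IDH1. There was no sample with doxycycline but without the transgene, and the untreated samples carry no day, so doxycycline and time in culture cannot be told apart from the mutant enzyme. The promoter that drives the transgene, and whether the line is 1 clone, are unknown here. Nothing in the labels tells whether replicates came from cultures of their own, so the p-values measure the spread between these samples, which may be technical.

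ERK is the last kinase of the RAS, RAF and MEK cascade that growth factor receptors switch on. Active ERK raises the transcription of its own inhibitors: dual-specificity phosphatases remove the activating phosphates from ERK and its relatives, and Sprouty and SPRED proteins act upstream, on receptors, RAS and RAF. These transcripts are therefore widely read as a delayed trace of ERK activity, and several are also immediate early genes with AU-rich, short-lived mRNAs. Transcripts were measured here, not phosphorylated ERK.

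The libraries were bulk MARS-seq, which counts the 3′ ends of transcripts by unique molecular identifiers (UMIs). Library totals ran from 2573290 to 5567651 UMIs for the day 7 table and from 1816599 to 4656705 for the day 3 and day 7 table. Levels are given as CPM, that is UMI counts relative to the TMM-scaled total of the tested genes. In bulk RNA, fewer cells with a transcript and less of it per cell cannot be told apart. The 3′ counts of IDH1 itself did not pass the test at day 7 (log2 change 0.22 ± 0.11, SE, edgeR adjusted p = 0.178), and whether the induced copy shares the counted 3′ end is unknown here. Of 8 astrocyte markers, GFAP, AQP4, SLC1A2 and ALDH1L1 were in neither table. The other 4 were SOX9, GJA1, SLC1A3 and S100B, and S100B had 0 to 8 UMIs per library. The astrocyte label thus rests here on SOX9, GJA1 and SLC1A3. The summed level of the 4 was 90.5 to 98.9 CPM in the day 7 b2 libraries, against 59.6 to 89.6 CPM in the untreated b2 libraries. In b1 that sum went the other way, at 73.7 CPM at day 7 against 83.1 to 87.2 CPM untreated. Over both batches SOX9 rose at day 7 (log2 change 0.64 ± 0.15, SE, edgeR adjusted p = 0.00518).

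At day 7 of doxycycline, 7 of the 10 feedback genes rose and 0 fell. Over all 12449 tested genes of that table, 8.43% rose, 7.28% fell and 15.7% were called in either direction, at a Benjamini-Hochberg adjusted p under 0.05 with edgeR's quasi-likelihood test and a batch term. DESeq2 called 8 of the 10 higher and limma-voom 7, each with 0 lower, and 0 had a lower value at an unadjusted p under 0.05. The median log2 change of the 10 genes was 0.63, beside -0.02 over all tested genes. Since the 10 genes were chosen with earlier results of these data known, these shares describe the set and do not test it. Scaled by library size alone, all tested genes gave 667 higher and 1429 lower calls, against 1049 and 906, their median log2 change was -0.09, and 5 of the 10 rose. Without a batch term 3 of the 10 rose, and DUSP4, DUSP5, SPRY2 and SPRY4 did not pass (edgeR adjusted p = 0.386, 0.256, 0.18 and 0.176).

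**Figure D1:**
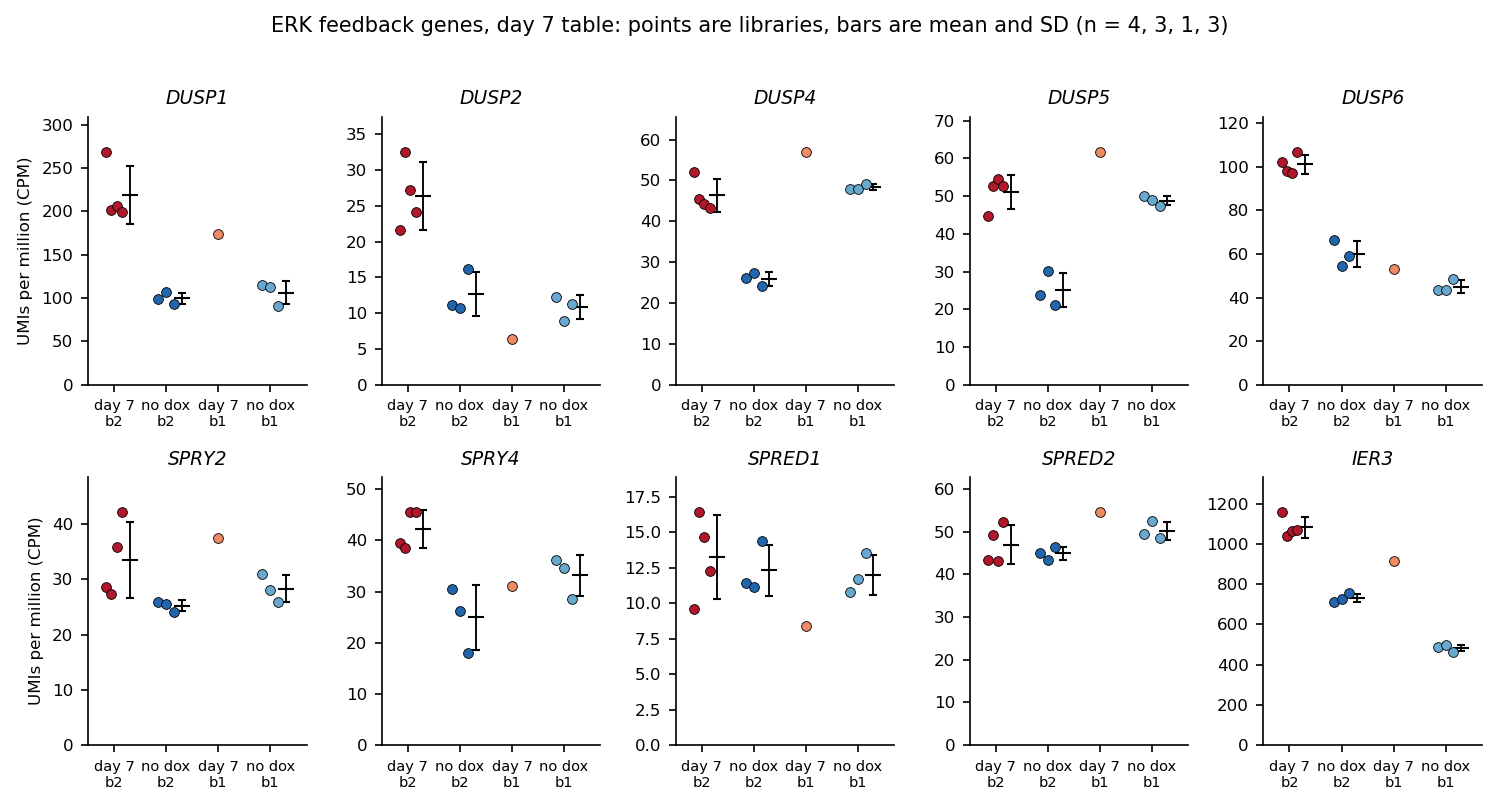
CPM of each feedback gene in the day 7 table, 1 panel per gene, for day 7 and untreated libraries of b2 and then of b1; points are libraries and bars the mean and SD (n = 4, 3, 1 and 3). In b2 the day 7 points lie above the untreated ones for 8 genes and overlap them for SPRED1 and SPRED2, and the single b1 day 7 library lies below its untreated libraries for DUSP2 and SPRED1.

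DUSP1 (MKP-1), a nuclear phosphatase of p38, JNK and ERK and an immediate early gene, had 269, 201, 206 and 199 CPM in the day 7 b2 libraries, against 99.3, 106 and 93.3 CPM in the untreated b2 libraries. The b1 day 7 library had 173 CPM, against 115, 113 and 90.9 CPM in the untreated b1 libraries. Day 7 was higher than every untreated library in both batches. The log2 change was 1.01 ± 0.10 (SE), a 2.01-fold rise (edgeR adjusted p = 1.49e-06). The 250 bases before its RefSeq start are shown because they hold a full cyclic AMP response element, the binding site of CREB and ATF factors (GRCh38.p14, minus strand, chr5:172771196-172771445). Capitals mark the element TGACGTCA and its core TGACG, searched on both strands. The full element contains a core on each strand.

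DUSP1: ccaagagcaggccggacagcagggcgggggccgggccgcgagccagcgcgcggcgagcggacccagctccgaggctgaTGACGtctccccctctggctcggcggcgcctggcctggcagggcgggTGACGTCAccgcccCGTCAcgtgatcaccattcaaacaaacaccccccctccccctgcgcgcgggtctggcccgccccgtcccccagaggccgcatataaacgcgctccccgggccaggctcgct

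The full element spans bases -125 to -118 before the start, and of 35116 RefSeq promoter windows of the same length 1.65% hold one. Further cores begin at -172 and -111, and 21.22% of windows hold a core.

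DUSP4 (MKP-2), a second nuclear phosphatase of ERK, JNK and p38, had 52.1, 45.5, 44.3 and 43.3 CPM in the day 7 b2 libraries, against 26.2, 27.3 and 24.1 CPM in the untreated b2 libraries. In b1 it had 57.0 CPM at day 7, against 47.8, 47.9 and 49.2 CPM untreated. The groups did not overlap in either batch, and the untreated b1 libraries were as high as the day 7 b2 libraries. Its log2 change was 0.64 ± 0.11 (SE, edgeR adjusted p = 0.000268).

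DUSP5, a nuclear phosphatase specific to ERK, had 44.6, 52.7, 54.6 and 52.6 CPM in the day 7 b2 libraries, against 23.8, 30.1 and 21.2 CPM in the untreated b2 libraries. In b1 it had 61.8 CPM at day 7, against 50.0, 49.1 and 47.5 CPM untreated. As for DUSP4, day 7 was above its own batch's untreated libraries, and the untreated levels differed between the batches. DUSP5 rose by 0.80 ± 0.12 on the log2 scale (SE, edgeR adjusted p = 8.37e-05).

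DUSP6 (MKP-3), the cytoplasmic counterpart of DUSP5, had 102, 98.2, 97.4 and 107 CPM in the day 7 b2 libraries, against 66.3, 54.5 and 59.1 CPM in the untreated b2 libraries. In b1 it had 53.0 CPM at day 7, against 43.4, 43.3 and 48.3 CPM untreated. Day 7 was higher in both batches, and the b1 day 7 library lay below every b2 untreated library but none of its own. DUSP6 rose by 0.63 ± 0.10 (log2, SE, edgeR adjusted p = 8.74e-05).

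DUSP2 (PAC-1), an inducible nuclear phosphatase first known from lymphocytes, had 21.7, 32.6, 27.2 and 24.1 CPM in the day 7 b2 libraries, against 11.2, 10.7 and 16.2 CPM in the untreated b2 libraries. In b1 it had 6.38 CPM at day 7, on 16 UMIs, against 12.3, 8.96 and 11.3 CPM untreated. The direction was thus opposite in the batches. Over both, the log2 change of DUSP2 was 0.74 ± 0.25 (SE) and did not pass (edgeR adjusted p = 0.0604). In the b2 libraries alone it was 1.12 (edgeR adjusted p = 0.00013), without the b1 day 7 library 1.11 (5.41e-05), and without b1 untreated library 1 it was 0.80 (0.0428).

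Of the Sprouty genes, which block the step from receptors to RAS and RAF, SPRY2 had 28.6, 27.4, 35.8 and 42.2 CPM in the day 7 b2 libraries, against 26.0, 25.5 and 24.1 CPM in the untreated b2 libraries. In b1 SPRY2 had 37.5 CPM at day 7, against 30.9, 28.1 and 25.9 CPM untreated. The day 7 b2 libraries lay above the untreated ones with little room, from 27.4 to 42.2 CPM. SPRY2 rose by 0.41 ± 0.12 (log2, SE, edgeR adjusted p = 0.0193), and did not pass without day 7 library b2-20 (edgeR adjusted p = 0.0586) or with library size alone (edgeR adjusted p = 0.0535).

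SPRY4 had 39.6, 38.6, 45.5 and 45.5 CPM in the day 7 b2 libraries, against 30.6, 26.2 and 18.0 CPM in the untreated b2 libraries. In b1 its 31.1 CPM at day 7 lay inside the untreated values of 36.3, 34.7 and 28.6 CPM. The rise over both batches was 0.52 ± 0.15 (log2, SE, edgeR adjusted p = 0.0233). SPRY4 did not pass without day 7 library b2-20 or untreated libraries b2-2 or b2-4 (edgeR adjusted p = 0.0525, 0.0847 and 0.0586), nor with library size alone (edgeR adjusted p = 0.0618).

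The SPRED genes encode membrane proteins that hold RAS in check, SPRED1 by bringing neurofibromin to the membrane. SPRED1 had 9.62 to 16.4 CPM in the day 7 b2 libraries, against 11.1 to 14.4 CPM in the untreated b2 libraries. In b1 SPRED1 had 8.37 CPM at day 7, on 21 UMIs, against 10.8 to 13.5 CPM untreated. SPRED2 had 43.1 to 52.2 CPM in the day 7 b2 libraries, against 43.4 to 46.5 CPM in the untreated b2 libraries. In b1 SPRED2 had 54.6 CPM at day 7, above the 48.6 to 52.6 CPM of the untreated libraries. The b2 groups of both genes overlapped. The log2 change at day 7 was -0.01 ± 0.17 for SPRED1 (SE, 95% interval -0.37 to 0.34, edgeR adjusted p = 0.975). For SPRED2 it was 0.08 ± 0.09 (SE, 95% interval -0.10 to 0.26, edgeR adjusted p = 0.571). The interval of SPRED1 holds changes of up to 0.34 in either direction, so its low counts limit what could be seen.

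IER3 (IEX-1), an immediate early gene whose protein is an ERK substrate, had 1158, 1039, 1066 and 1067 CPM in the day 7 b2 libraries, against 713, 724 and 754 CPM in the untreated b2 libraries. In b1 it had 917 CPM at day 7, against 485, 498 and 464 CPM untreated. Each day 7 library was above every untreated library of either batch. IER3 rose by 0.68 ± 0.07 (log2, SE), a 1.60-fold rise (edgeR adjusted p = 2.37e-07). Its spread was small: the coefficient of variation was 4.81% in day 7 b2 and 2.90% in untreated b2, beside 22.3% and 14.8% for SPRED1.

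In b2, 8 of the 10 genes were higher in every day 7 library than in every untreated library and 0 were lower in every one, where 12% of all tested genes were higher, 13.1% lower and 25.1% did not overlap in either direction. The untreated libraries of the batches also differed. In untreated b2 against untreated b1, DUSP6 and IER3 were higher and DUSP4, DUSP5 and SPRED2 lower without overlap, where 28% of all tested genes were higher, 28% lower and 56% did not overlap in either direction.

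Whether the day 7 change itself differed between the batches was tested as an interaction. DUSP2 passed, its day 7 change being 1.88 ± 0.41 higher in b2 than in b1 (log2, SE, edgeR adjusted p = 0.0101), where 2.64% of all tested genes passed, 1.52% higher and 1.12% lower. It was the only 1 of the 10 genes that edgeR called, as with limma-voom, while DESeq2 called 0 and gave DUSP2 no adjusted p. With edgeR 7 of the 10 had an unadjusted p under 0.05, as did 17.4% of all tested genes. The 6 others were DUSP1, DUSP4, DUSP5, DUSP6 and SPRY4, larger in b2, and IER3, smaller in b2. IER3 differed by -0.36 ± 0.12 (SE, edgeR adjusted p = 0.101) and SPRY4 by 0.82 ± 0.26 (log2, SE, edgeR adjusted p = 0.0921). Within b2 the mean log2 CPM of DUSP5 was 1.03 higher at day 7, and within b1 0.34 higher. For IER3 the same differences were 0.57 in b2 and 0.93 in b1. Since b1 has 1 day 7 library, its spread is assumed to be that of the other groups. Without day 7 library b2-17, DUSP5, SPRY4 and IER3 also passed (edgeR adjusted p = 0.0218, 0.0479 and 0.0315). DUSP5 also passed without untreated library b2-2 (edgeR adjusted p = 0.0395) and SPRY4 without untreated library b2-1 (edgeR adjusted p = 0.0388). Over all genes, 57.4% of the calls were higher in b2, 73.7% with library size alone and 45.7% with limma-voom.

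At day 3, DUSP2, DUSP5 and DUSP1 rose, 3 of the 10 genes. Over all 10586 tested genes of the b2 libraries, 1.84% rose, 1.67% fell and 3.51% were called. The median log2 change of the 10 genes was 0.18, beside 0.00 over all tested genes. DESeq2 and limma-voom each called 3 of the 10 as well, and with all 3 tools 0 fell, with 0 lower at an unadjusted p under 0.05. Of all called genes 52.4% were higher, and 35.0% with library size alone, where 3 of the 10 were again called higher.

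**Figure D2:**
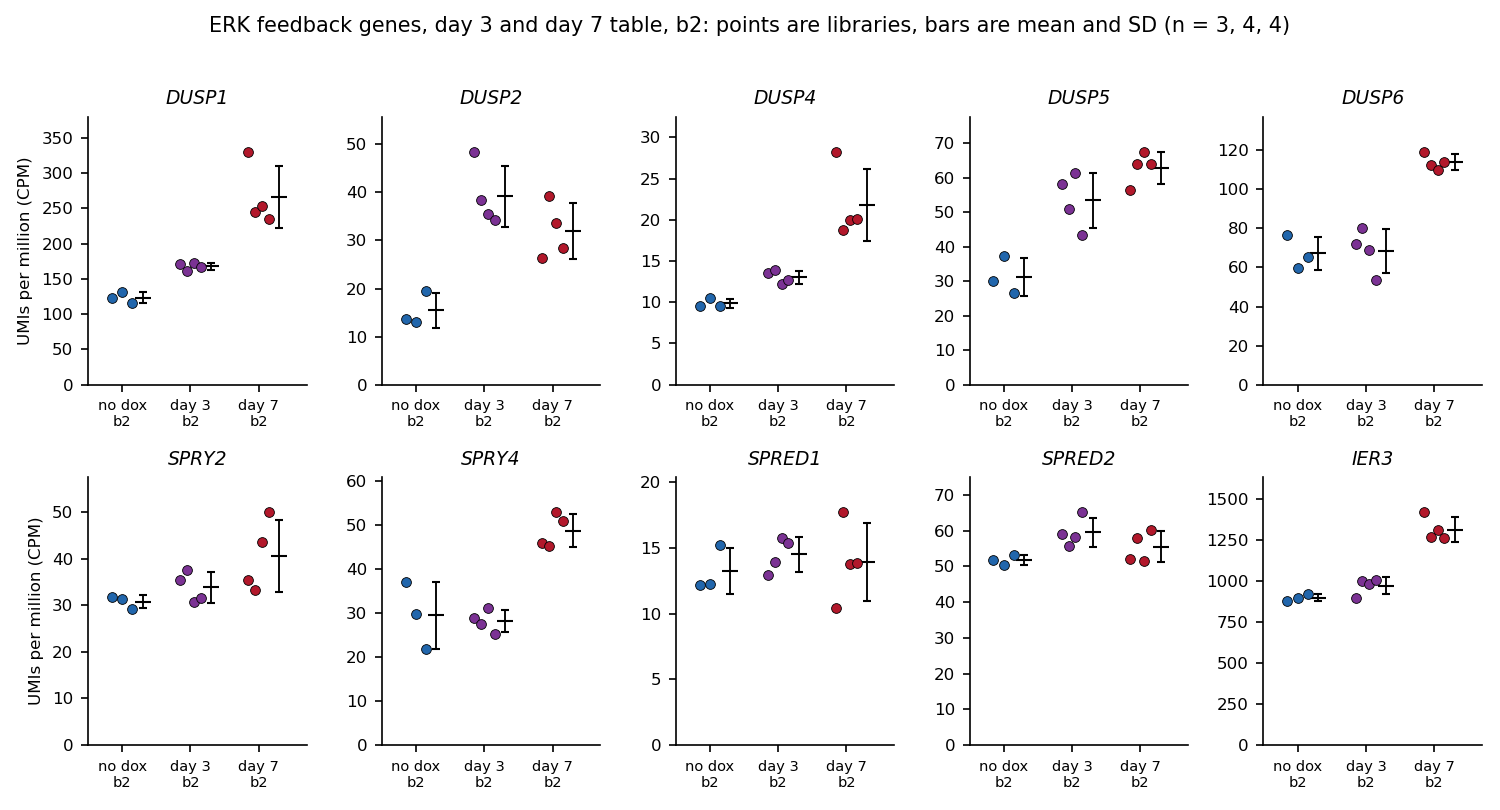
CPM of each feedback gene in the b2 libraries of the day 3 and day 7 table, 1 panel per gene, in the order no doxycycline, day 3 and day 7; points are libraries and bars the mean and SD (n = 3, 4 and 4). DUSP2 and DUSP5 are already above the untreated libraries at day 3, while DUSP6, SPRY4 and IER3 overlap them at day 3 and lie above them at day 7.

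DUSP2 had 13.7, 13.1 and 19.6 CPM without doxycycline, 48.4, 38.4, 35.6 and 34.4 CPM at day 3, and 26.3, 39.2, 33.7 and 28.4 CPM at day 7. Both times were above every untreated library, and day 7 overlapped day 3. DUSP2 rose 2.59-fold at day 3, by 1.37 ± 0.17 (log2, SE, edgeR adjusted p = 6.23e-06), on 45 to 105 UMIs per library of the 2 groups. At day 7 against day 3 the change was -0.28 ± 0.14 (log2, SE, 95% interval -0.57 to 0.00, edgeR adjusted p = 0.276). The 250 bases before its RefSeq start are shown beside those of SPRY4, since DUSP2 has the largest log2 change of the 10 genes at day 3 and SPRY4 at day 7 against day 3 (GRCh38.p14, minus strand, chr2:96145441-96145690 for DUSP2 and chr5:142324248-142324497 for SPRY4). Capitals mark the core of the cyclic AMP response element, TGACG.

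DUSP2: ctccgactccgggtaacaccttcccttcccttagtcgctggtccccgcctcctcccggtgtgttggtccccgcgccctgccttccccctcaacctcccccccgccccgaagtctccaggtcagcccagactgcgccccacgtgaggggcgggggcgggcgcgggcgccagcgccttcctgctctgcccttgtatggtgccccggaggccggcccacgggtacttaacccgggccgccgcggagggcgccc
SPRY4: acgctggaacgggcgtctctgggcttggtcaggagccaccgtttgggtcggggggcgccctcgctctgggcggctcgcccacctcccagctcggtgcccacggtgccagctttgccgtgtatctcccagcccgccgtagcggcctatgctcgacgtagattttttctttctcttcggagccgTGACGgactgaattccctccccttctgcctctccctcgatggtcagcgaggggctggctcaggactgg

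SPRY4 holds a core at -68 and the DUSP2 window holds none. The SPRY4 window lies inside the gene as GENCODE annotates it (chr5:142310427-142326455). That of DUSP2 lies just before its annotated gene (chr2:96143166-96145440), so the 2 windows differ in place. Over the 7 genes with a RefSeq promoter, searched in 10 windows, SPRY2 held a core at -190 in 1 window and an ETS core (GGAAGT, in 19.5% of all windows) within the last 6 bases of another. The AP-1 letters TGANTCA (in 6.57% of all windows) and the CArG box (in 1.16%) were in none of the 10. DUSP4, DUSP5 and IER3 were not among the genes searched.

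DUSP5 had 30.0, 37.2 and 26.5 CPM without doxycycline, 58.0, 50.8, 61.3 and 43.4 CPM at day 3, and 56.5, 63.9, 67.5 and 63.8 CPM at day 7. Day 3 was above every untreated library and overlapped day 7. DUSP5 rose at day 3 by 0.73 ± 0.13 (log2, SE, edgeR adjusted p = 0.000918), and its 0.25 ± 0.11 from day 3 to day 7 did not pass (SE, edgeR adjusted p = 0.21).

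DUSP1 had 123, 132 and 116 CPM without doxycycline, 171, 162, 173 and 167 CPM at day 3, and 330.1, 245, 254 and 235 CPM at day 7. The groups did not overlap at either step. DUSP1 rose by 0.44 ± 0.10 at day 3 (log2, SE, edgeR adjusted p = 0.00957), a call lost without untreated library b2-4 (edgeR adjusted p = 0.0575), and by 0.66 ± 0.09 from day 3 to day 7 (SE, edgeR adjusted p = 1.06e-05).

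At day 7 against day 3, 5 of the 10 genes rose: SPRY4, DUSP6, DUSP4, DUSP1 and IER3. Over all tested genes 2.76% rose, 2.31% fell and 5.07% were called, and the median log2 change of the 10 genes was 0.36, beside 0.01 over all tested genes. All 5 calls held with each left-out library and each other setting run. With edgeR, DESeq2 and limma-voom 0 of the 10 fell, and 0 had a lower value at an unadjusted p under 0.05. This comparison and that of day 3 share the day 3 libraries.

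SPRY4 had 36.9, 29.6 and 21.7 CPM without doxycycline, 28.7, 27.4, 31.1 and 25.3 CPM at day 3, and 45.8, 45.2, 52.8 and 50.8 CPM at day 7. Day 3 lay within the untreated range and day 7 above all other libraries. The log2 change of SPRY4 was 0.80 ± 0.13 at day 7 against day 3 (SE, edgeR adjusted p = 0.000114) and -0.10 ± 0.15 at day 3 (SE, 95% interval -0.40 to 0.20, edgeR adjusted p = 0.803).

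DUSP6 had 76.4, 59.9 and 65.2 CPM without doxycycline, 72.1, 80.1, 68.9 and 53.3 CPM at day 3, and 119, 113, 109.7 and 114 CPM at day 7. Its pattern was that of SPRY4, with day 3 spread around the untreated libraries. DUSP6 rose by 0.73 ± 0.10 at day 7 against day 3 (log2, SE, edgeR adjusted p = 1.27e-05), and at day 3 its log2 change was 0.03 ± 0.11 (SE, 95% interval -0.20 to 0.26, edgeR adjusted p = 0.931).

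IER3 had 880.4, 894 and 924 CPM without doxycycline, 895, 1004, 983 and 1007 CPM at day 3, and 1421, 1268, 1310.0 and 1261 CPM at day 7. The rise at day 7 against day 3 was 0.44 ± 0.06 (log2, SE, edgeR adjusted p = 2.31e-05), and the log2 change at day 3 was 0.11 ± 0.07 (SE, 95% interval -0.02 to 0.25, edgeR adjusted p = 0.416). IER3 at day 3 overlapped the untreated libraries by its lowest library alone.

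DUSP4 had 9.52, 10.5 and 9.57 CPM without doxycycline, 13.5, 13.9, 12.2 and 12.6 CPM at day 3, and 28.2, 18.8, 19.9 and 20.1 CPM at day 7. The 3 groups did not overlap. DUSP4 rose by 0.73 ± 0.17 at day 7 against day 3 (log2, SE, edgeR adjusted p = 0.00673), and its 0.39 ± 0.20 at day 3 did not pass (SE, edgeR adjusted p = 0.328), on 22 to 47 UMIs per library.

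SPRY2 stood at 30.8 ± 1.45 CPM without doxycycline (SD, n = 3), 33.8 ± 3.30 CPM at day 3 and 40.6 ± 7.71 CPM at day 7 (SD, n = 4 each). SPRED1 stood at 13.2 ± 1.73, 14.5 ± 1.31 and 13.9 ± 3.00 CPM and SPRED2 at 51.7 ± 1.36, 59.5 ± 4.07 and 55.4 ± 4.34 CPM over the same 3 groups (SD, n = 3, 4 and 4). None of the 3 genes was called in either interval. SPRED2 at day 3 was above every untreated library, by 0.21 ± 0.10 (log2, SE, edgeR adjusted p = 0.314). Without overlap, 5 of the 10 genes were higher at day 3 than untreated and 0 lower, where 8.6% of tested genes were higher, 8.14% lower and 16.7% either. Likewise 5 were higher at day 7 than at day 3 and 0 lower, where 6.17% of tested genes were higher, 5.47% lower and 11.6% either.

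**Figure D3:**
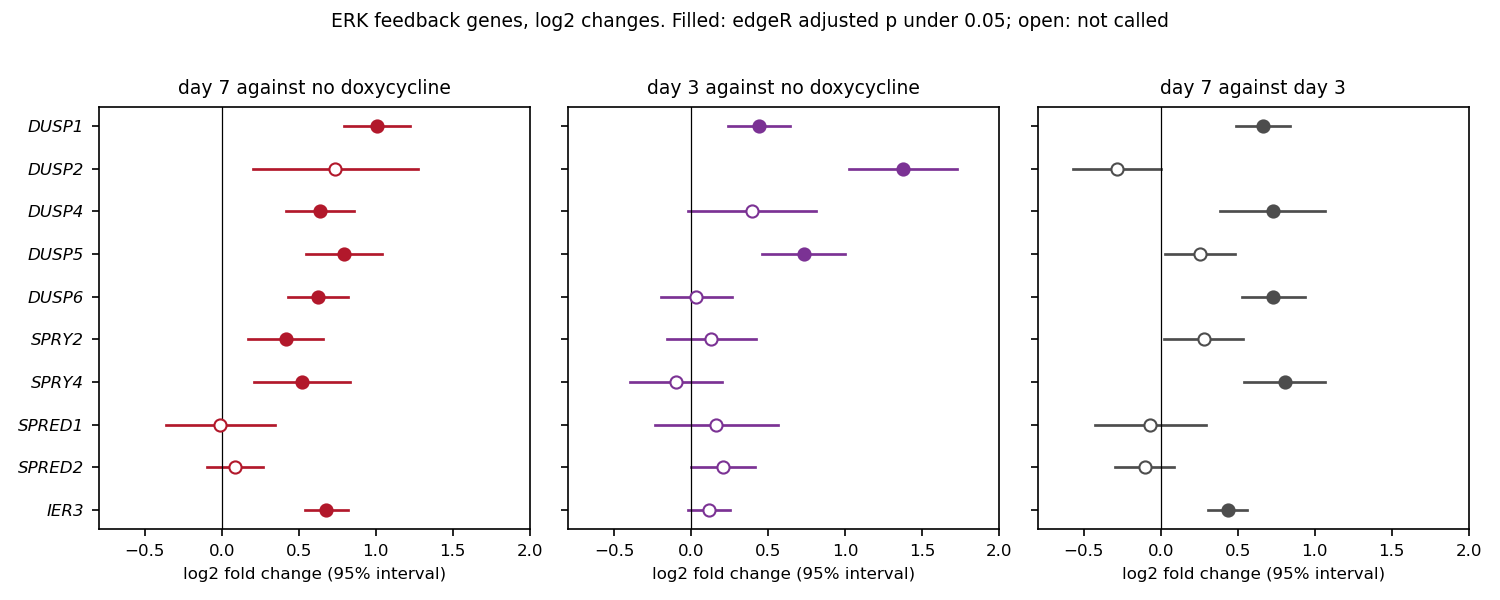
Log2 fold change of each feedback gene with its 95% interval, on the x axis, in the 3 comparisons; filled points passed edgeR's test at an adjusted p under 0.05. DUSP2 has the largest value at day 3 (1.37), and SPRY4, DUSP6, DUSP4, DUSP1 and IER3 are filled at day 7 against day 3.

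The counts of the same 7 libraries differ between the tables for some genes, and among the 10 this touched DUSP4. Summed over those libraries, DUSP4 had 413 UMIs in the day 3 and day 7 table and 1126 in the day 7 table, 36.7%. By library the share ran from 29.6% in untreated library b2-1 to 44.6% in day 7 library b2-17, and it was higher in each of the 4 day 7 libraries than in each of the 3 untreated ones. The size of its day 7 rise in b2 thus depended on the table. Its mean was 46.3 CPM at day 7 against 25.9 untreated in the day 7 table, and 21.7 against 9.85 in the other. Day 3 libraries are in the second table alone, so the rise of DUSP4 from day 3 to day 7 rests on those lower counts. The other 9 genes kept 87.4% to 102% of their counts, and over 9841 genes with at least 100 UMIs the median was 94.4%. DUSP4 was higher at day 7 in both tables, but its CPM cannot be set across them. Nor can the CPM of the other 9 genes, since the totals behind them differ. Day 7 library b2-17 had 4331 UMIs of IER3 and 1158 CPM in the day 7 table. In the other table it had 4380 UMIs and 1421 CPM.

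Reads were assigned with HTSeq, per the submitters' processing notes, and its strand setting is unknown here. DUSP1, DUSP6, SPRY4 and IER3 overlap annotated antisense genes, IER3-AS1 and SPRY4-AS1 among them. Whether reads of the 2 strands were counted apart is thus unknown. SPRED2 holds a sense intronic transcript.

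The AU-rich sequences that mark short-lived mRNAs were counted in the annotated 3′ UTR of 1 transcript per gene (GENCODE, GRCh38). The pentamer ATTTA was found in 9 of the 10 genes, where 67.4% of 19113 genes held it. DUSP5 was the one without it. Per kilobase it stood at 6.64 in IER3, 5.95 in DUSP1 and 4.57 in DUSP2, beside a median of 1.71 over genes with a 3′ UTR of 200 bases or more. The nonamer TTATTTATT, which contains the pentamer, was in DUSP1, at 2 places, and in DUSP4, at 1, where 8.2% of all genes held it. One of the DUSP1 copies is shown in capitals within bases 91 to 120 of its 3′ UTR (chromosome 5), as the site type that ZFP36 proteins bind.

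DUSP1: gggctggtccTTATTTATTtaacttcaccc

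DUSP1 and IER3, which had the highest density of the pentamer, were among the genes that rose at day 7 against day 3. The others that rose had lower densities: SPRY4 (2.1 per kilobase), DUSP4 (1.51) and DUSP6 (0.495). DUSP2, with 4.57 per kilobase, was not called in that comparison, nor were SPRY2 (2.56), SPRED2 (1.89) and DUSP5, which lacks the pentamer. SPRED1, with 24 pentamers (4.30 per kilobase), was not called in any comparison. A link between pentamer density and the change was not tested.

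The rest of the pathway was read from lists chosen with earlier results of these data known. Over all tested genes, at day 7 8.43% rose, 7.28% fell and 29.8% had an edgeR unadjusted p under 0.05. At day 3, 1.84% rose, 1.67% fell and 16.5% had such a p. The comparison of day 7 against day 3 had 2.76% higher and 2.31% lower, and that between batches 1.52% and 1.12%. Of 15 other ERK-responsive transcripts 8 rose at day 7 and 0 fell (median log2 change 0.27), among them PLAUR, the urokinase receptor (0.60 ± 0.07, edgeR adjusted p = 3.19e-06), and UPP1, a uridine phosphorylase (0.55 ± 0.09, SE, edgeR adjusted p = 0.00016). DESeq2 called 9 of them and limma-voom 8, and 0 were lower at an unadjusted p under 0.05. Without a batch term PLAUR and UPP1 did not pass (edgeR adjusted p = 0.16 and 0.206). At day 3 edgeR, DESeq2 and limma-voom called 0 of 14, with 3 at an edgeR unadjusted p under 0.05. At day 7 against day 3, 5 of 14 rose, with the cyclin CCND1 at 0.56 ± 0.07 (edgeR adjusted p = 4.71e-06) and PLAUR at 0.48 ± 0.07 (SE, edgeR adjusted p = 6.87e-05). As for SPRY4, DUSP6 and IER3, the calls of this list came at day 7.

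Of 9 other genes listed as feedback regulators 4 rose at day 7. TRIB1, a pseudokinase that binds MEK, rose by 1.09 ± 0.18, and SH2B3, an adaptor that dampens receptor signalling, by 0.58 ± 0.09. LRIG1, which promotes loss of the EGF receptor, rose by 0.39 ± 0.09, and ERRFI1, an inhibitor of that receptor, also rose. The day 7 change of ERRFI1 was larger in b2 than in b1, which has 1 day 7 library, and that difference did not pass. For the 3 with values (log2, SE) the edgeR adjusted p ran from 6.18e-05 to 0.00569. Without a batch term SH2B3 and LRIG1 did not pass (edgeR adjusted p = 0.52 and 0.225). At day 3 the 3 tools called 0 of 8 of these genes, with 5 at an edgeR unadjusted p under 0.05. SH2B3 also rose at day 7 against day 3 (0.52 ± 0.09, SE, edgeR adjusted p = 0.000565). Of 4 other MAP kinase phosphatases DUSP10, which acts on p38 and JNK, was called by edgeR (0.78 ± 0.26, SE, edgeR adjusted p = 0.0457), but DESeq2 and limma-voom called 0, and the call held without day 7 library b2-17 or untreated library b2-4 and was lost without each of the other 9 libraries (edgeR adjusted p from 0.0519 to 0.141).

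**Figure D4:**
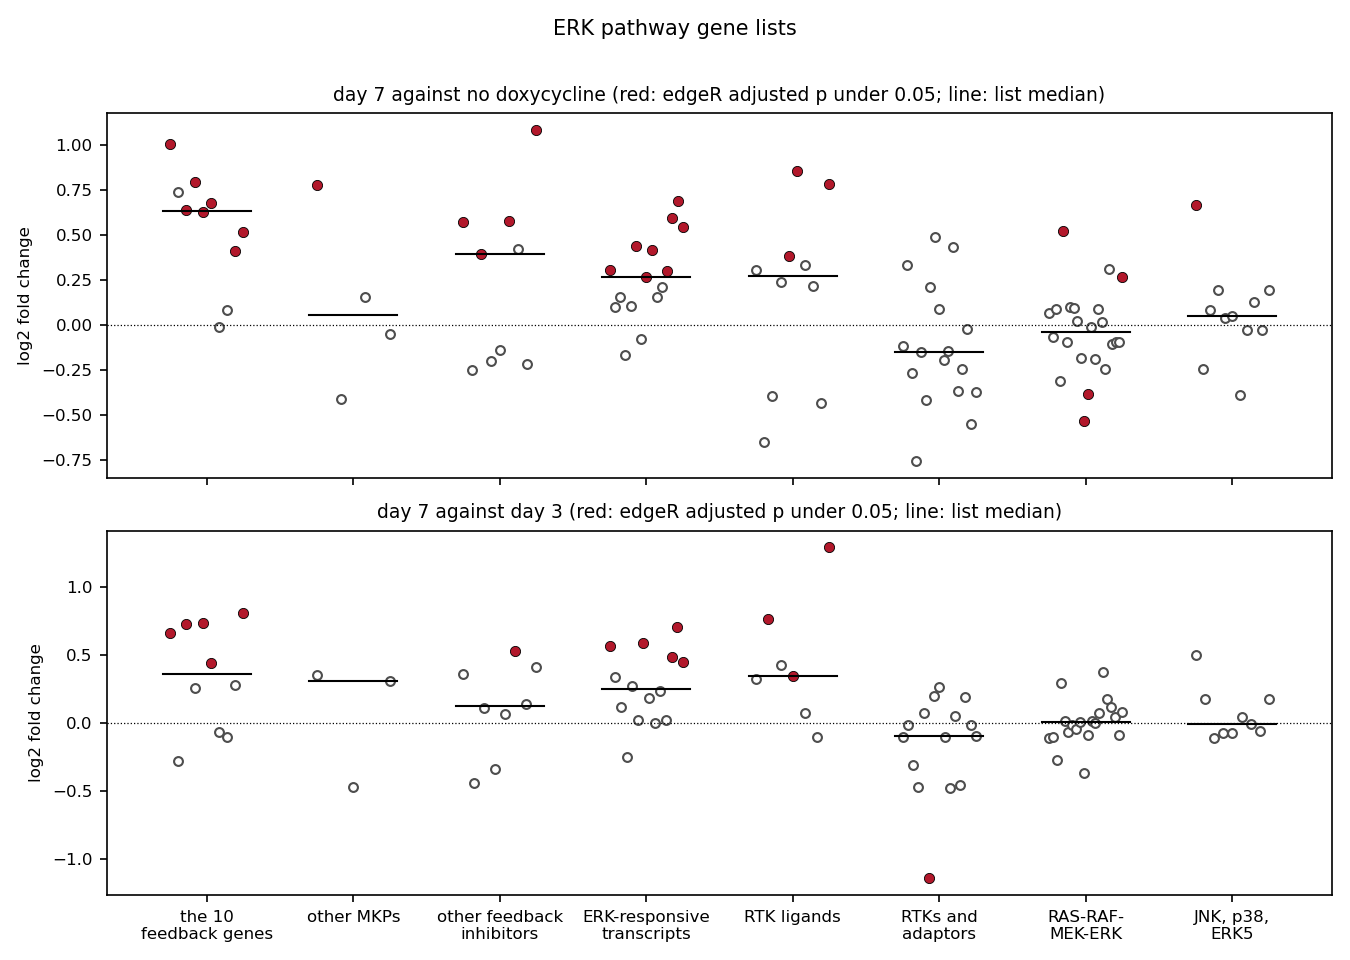
Log2 fold change of each gene, on the y axis, by list, at day 7 against no doxycycline (top) and at day 7 against day 3 (bottom); red points passed edgeR's test at an adjusted p under 0.05 and bars mark the list median. The 10 feedback genes have the highest median of the lists in the top panel (0.63), while those of receptors and the kinase cascade are -0.15 and -0.04. All lists, the 10 genes included, were chosen with earlier results of these data known.

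Of 10 ligands of receptor tyrosine kinases 3 rose at day 7 with edgeR: HBEGF (0.86 ± 0.10, edgeR adjusted p = 4.17e-06) and TGFA (0.78 ± 0.25, edgeR adjusted p = 0.0344), both ligands of the EGF receptor, and FGF5 (0.38 ± 0.13, SE, edgeR adjusted p = 0.0493). Of this list limma-voom called 3 higher, and DESeq2 2 higher and 1 lower. HBEGF was the only ligand called at day 3 (0.64 ± 0.12, SE, edgeR adjusted p = 0.000967), as were DUSP1, DUSP2 and DUSP5 among the 10 genes. TGFA had 1.08 to 12.4 CPM and lost its call without day 7 library b2-19 or b2-20, any untreated b2 library or untreated library b1-3 (edgeR adjusted p from 0.0569 to 0.0905), with library size alone (0.0598) and with no batch term (0.996). FGF5 lost its call without day 7 library b2-18 or b2-19, any untreated b2 library or untreated library b1-1 or b1-3 (edgeR adjusted p from 0.0667 to 0.159). It also lost it with DESeq2 (adjusted p = 0.0568), and with edgeR with library size alone (0.137), at least 20 counts in 3 libraries (0.0535), no robust step (0.0581), no batch term (0.177) and the other table's counts (0.514). At day 7 against day 3, FGF2, a fibroblast growth factor, rose by 0.76 ± 0.16 (log2, SE, edgeR adjusted p = 0.00414). HBEGF (0.35 ± 0.10, edgeR adjusted p = 0.0361) and TGFA (1.29 ± 0.39, SE, edgeR adjusted p = 0.0498) also passed, of which limma-voom called 1 and DESeq2 0. HBEGF did not pass without day 7 library b2-19 or b2-20 or any day 3 library but b2-9, with edgeR adjusted p-values of 0.0786 to 0.148, nor TGFA without any of the same 3 day 3 libraries or any untreated library (edgeR adjusted p from 0.055 to 0.203). TGFA also missed the threshold with RLE factors, library size alone, no filter, limma-voom and no robust step (adjusted p from 0.0501 to 0.057). Of 17 receptors and adaptors edgeR and DESeq2 called 0 at day 7 and limma-voom 1, lower, with 5 at an edgeR unadjusted p under 0.05. Those 5 of 17 are near the 29.8% of all tested genes at such a p. Of them 4 were lower, where 15% of all tested genes were lower at such a p. Between day 3 and day 7, 5 of 15 had such a p, 4 of them lower, where 9.1% of all tested genes were lower. There edgeR called 1 lower, limma-voom 2 and DESeq2 0. At day 7 against day 3 the FGF receptor FGFR2 fell (-1.14 ± 0.30, log2, SE, edgeR adjusted p = 0.02), a call lost without day 3 library b2-9 or b2-10 (edgeR adjusted p = 0.0525 and 0.0775).

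In the RAS to ERK cascade, 2 of 22 genes rose, KSR1, a scaffold (0.52 ± 0.11, SE, edgeR adjusted p = 0.0016), and RRAS2, and 2 fell: NF1, the RAS GTPase-activating protein neurofibromin (-0.38 ± 0.09, SE, edgeR adjusted p = 0.00762), and MRAS (-0.53 ± 0.13, SE, edgeR adjusted p = 0.00768). The share of this list called, 4 of 22, was near the 15.7% of all tested genes. In b2 on the other table's counts, NF1 (-0.25, edgeR adjusted p = 0.367) and MRAS (-0.33, edgeR adjusted p = 0.329) did not pass. NF1 also did not pass in the b2 libraries alone (-0.29, edgeR adjusted p = 0.0702) or without a batch term (-0.36, edgeR adjusted p = 0.0847). Without a batch term KSR1 did not pass either (0.30, edgeR adjusted p = 0.57). Of 11 JNK, p38 and ERK5 kinases MAP2K3, which activates p38, rose (0.67 ± 0.11, SE, edgeR adjusted p = 0.000526). That 1 of 11 is near the 8.43% of all tested genes that rose. edgeR, DESeq2 and limma-voom each called 0 of the 3 ZFP36 genes at day 7, with 2 at an unadjusted p under 0.05, and at day 7 against day 3 ZFP36L1 rose (0.35 ± 0.07, SE, edgeR adjusted p = 0.0036).

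The batch difference of DUSP2 stood beside differences of receptors and a ligand. The day 7 log2 change was higher in b2 than in b1 by 1.45 ± 0.29 for EGFR, the EGF receptor (SE, edgeR adjusted p = 0.00632), by 1.14 ± 0.21 for MET, the hepatocyte growth factor receptor (SE, edgeR adjusted p = 0.00196), and by 0.87 ± 0.21 for the phosphatase PTPN11 (SE, edgeR adjusted p = 0.0217), a call lost with limma-voom (adjusted p = 0.0737) and without untreated library b1-3 (edgeR adjusted p = 0.061). For the ligand FGF1 the difference was 1.78 ± 0.37 (log2, SE), which edgeR and limma-voom called and DESeq2 did not. ERBB2 was called lower by edgeR, but not by DESeq2 or limma-voom. EGFR had 59.1 to 68.5 CPM in the day 7 b2 libraries, against 34.9 to 50.5 CPM in the untreated b2 libraries. In b1 EGFR had 17.5 CPM at day 7, against 25.5 to 34.6 CPM untreated. Like DUSP2, EGFR was thus higher at day 7 in b2 and lower in the b1 library. Its counts also differed between the tables, at 62.0 ± 4.41 CPM at day 7 in b2 in the day 7 table and 18.8 ± 0.586 CPM in the other (SD, n = 4).

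Genes whose pattern over the 11 libraries of the day 3 and day 7 table was most like that of DUSP1, IER3 and DUSP6 were sought among 6274 genes by the root-mean-square difference of centred log2 CPM. NMNAT2 (0.12), DKK1 (0.12) and CXCL2 (0.14) lay nearest to DUSP1, whose own SD over the libraries was 0.48. SPHK1 (0.06), BDKRB1 (0.07) and CCDC86 (0.07) lay nearest to IER3, with an SD of 0.26. NT5E (0.16) and UTP18 (0.16) were among the 3 nearest to DUSP6, with an SD of 0.41. All of these points share the same libraries.

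Markers of other cell types were read beside these results. Of 5 fibroblast markers 3 were listed, with a summed level of 283 to 376 CPM in the day 7 b2 libraries, against 565 to 626 CPM in the untreated b2 libraries, and DCN and LUM were not in the tables. In b1 that sum was 955 CPM at day 7, against 948 to 1023 CPM untreated. In the other table it was 625 to 699.6 CPM without doxycycline, 502 to 535 CPM at day 3 and 303 to 425 CPM at day 7. COL1A2 was the 1 fibroblast marker that fell, by 1.85 at day 7 on the log2 scale (edgeR adjusted p = 8.58e-14). Of 5 microglia markers CSF1R alone was listed, and it rose at day 7 with the feedback genes, by 1.51 ± 0.41 (log2, SE, edgeR adjusted p = 0.0144), a call that DESeq2 and limma-voom also made. CSF1R had 1.44 to 2.45 CPM in the day 7 b2 libraries, against 0.182 to 0.971 CPM in the untreated b2 libraries, on 14 UMIs or fewer. In b1 it had 3.98 CPM at day 7, against 1.33 to 3.19 CPM untreated. Of 5 endothelial markers 1 was listed, at under 2 CPM. Of 5 neuron markers SNAP25 and SYT1 were listed in the day 7 table, with a sum of 11.2 to 14.3 CPM in the day 7 b2 libraries, against 14.8 to 17.2 CPM in the untreated b2 libraries. In the other table, which also lists TUBB3, the neuron sum was 78.2 to 91.8 CPM without doxycycline, 120 to 134 CPM at day 3 and 107 to 169 CPM at day 7. TUBB3 rose at day 3, by 0.72 ± 0.16 (log2, SE, edgeR adjusted p = 0.0297). Of 5 keratins 4 were listed, KRT14, KRT7, KRT8 and KRT18, and KRT5 was not in the tables. KRT14 did not pass the filter, so their sum is not read as a keratinocyte signal. It was 633 to 682 CPM in the day 7 b2 libraries, against 667 to 706 CPM in the untreated b2 libraries. In b1 the keratin sum was 784 CPM at day 7, against 1052 to 1107 CPM untreated. In the other table it was 751 to 785 CPM without doxycycline, 799 to 920.2 CPM at day 3 and 705 to 742 CPM at day 7. At day 7 KRT7 rose (0.36 ± 0.11, edgeR adjusted p = 0.0283) and KRT8 fell (-0.29 ± 0.09, log2, SE, edgeR adjusted p = 0.0364), and at day 3 KRT7 rose (0.64 ± 0.11, SE, edgeR adjusted p = 0.000727). The part of these markers in the changes of the feedback genes was not tested.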

How the data were processed

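Bulk MARS-seq was made from 15 samples of immortalized human astrocytes. The authors deposited 2 tables of whole-number UMI counts per gene, for which the submitters' processing notes name bcl2fastq, cutadapt, HTSeq, STAR 2.4.2a and the hg38 build. One covers day 7 in both batches (11 libraries) and one days 3 and 7 in b2 (11 libraries), and 7 libraries are in both. Of the second, 2 untreated columns have a description that a b1 sample shares, and b2 was read from the other columns beside them. The authors' 55 columns of other per-sample values were not used.

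After filterByExpr left 12449 and 10586 genes, TMM factors were computed and edgeR 4.0.16 (robust quasi-likelihood, R 4.3.3) gave p-values with Benjamini-Hochberg adjustment over all of them. The day 7 table had a batch term, and the difference between batches was an interaction. Alternatives were DESeq2 1.42.0, limma-voom (limma 3.58.1), RLE factors, library size alone, no filter, at least 20 counts in 3 libraries, no robust step, no batch term, b2 alone, the other table's b2 counts, the 2 compared groups alone and leaving out each library. Common BCV was 0.0991 and 0.0843, and the fits were tested on simulated data. Mean log2 CPM used a prior count of 2, and likeness a mean of at least 20 CPM.

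The 10 genes and the lists were chosen with earlier results of these data known. The text names all 10, and of each pathway list the called genes, with values for the 3 with the smallest p, except that some results are not reported here; likeness was sought for the 3 of the 10 with the smallest p over the 3 groups. Promoters came from RefSeq (GRCh38.p14) and 3′ UTRs from GENCODE. Figures were drawn with matplotlib in Python.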

Additional observations from a re-analysis of the deposited data

Results flagged for a closer look

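In the day 7 b2 libraries of the day 7 table, DUSP1 had 269 CPM in library b2-17, far from the other 3 (199 to 206 CPM). The rise of DUSP1 kept its call without that library. DUSP4 in the day 7 b2 libraries of the day 3 and day 7 table had 28.2 CPM in the same library, against 18.8 to 20.1 CPM in the other 3. In all, 30 groups of 4 libraries were examined in this way, and chance marks about 5% of such groups. The day 7 change of DUSP2 differed between the batches by 1.88 on the log2 scale (edgeR adjusted p = 0.0101), with 1 day 7 library in b1. The b1 day 7 library had 16 UMIs of DUSP2. The cause of these values was not tested.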

How the results depend on the processing

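Without a batch term at day 7, 3 of the 10 genes and 316 of all genes were called, against 7 and 1955. For the difference between batches, DESeq2 called 0 of the 10, with no adjusted p for DUSP2, and limma-voom called 210 genes against 329. Leaving out 1 library gave 5 to 8 of the 10 and 1405 to 1970 genes at day 7, 2 to 3 and 191 to 578 at day 3, 5 and 387 to 645 at day 7 against day 3, and 1 to 4 and 197 to 684 for the difference between batches. Values near 0 changed sign. SPRED1 at day 7 was 0.000738 with RLE factors, 0.00687 with no filter, 0.032 without a batch term, 0.16 in b2 alone and 0.0936 with the other table's counts, and -0.10 to 0.15 without 1 library. DUSP6 at day 3 was -0.00374 with library size alone, SPRED2's difference between batches 0.0208, and SPRY2's -0.00161 with DESeq2 and -0.00981 with limma-voom. Without 1 library SPRY2's difference ran from -0.113 to 0.0945, DUSP6 at day 3 from -0.0621 to 0.142, SPRY4 at day 3 from -0.236 to 0.074, NT5E at day 3 from -0.0846 to 0.196, UTP18 at day 3 from -0.0184 to 0.217, and SPRED1 at day 7 against day 3 from -0.184 to 0.0276. The causes were not tested. Of the counts under other settings, 135 stayed within 1.5 times the value given and 17 did not. Depth limits SPRED1 and DUSP2, which had as few as 21 and 16 UMIs in a library. No paired analysis was possible because the groups tested share no replicate numbers, and the untreated b2 and b1 libraries, which share 1 and 2, were compared by overlap alone, with no test.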
